A study of Arabidopsis thaliana with 27 samples.

Results

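In the Arabidopsis thaliana series examined here, 167 of 24607 loci were present in the egg cell and in the young zygote and absent from the zygote 10 hours later. They were chosen by measured values: at least 5 FPKM (a level scaled to transcript length and to the mapped fragments of the library) in every egg cell and every 14 hour zygote library, under 1 FPKM in every 24 hour zygote library, and under 5 FPKM in every 1-cell embryo library. The levels in those 4 groups are therefore a description and carry no test. Another 9095 loci met the first condition but not all of the others, and are called here the other egg and zygote loci. Of the 167 members, 166 were found in the RefSeq annotation, all of them protein coding, and 80 had a gene symbol. AT1G64470 was not matched there.

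RNA was sequenced from 27 libraries in 9 groups of 3, made from isolated cells and embryos of plants grown in a greenhouse under long days at 22 °C. Zygotes of reciprocal crosses between the accessions Columbia (Col) and Landsberg erecta (Ler) were included to follow the contribution of each parent. LZy14 and LZy24 were zygotes of a Ler mother and a Col father, 14 and 24 hours after pollination (HAP), and CZy14 and CZy24 were zygotes of a Col mother and a Ler father at the same hours. The other 5 groups were wholly Col: egg cells (EC), spherical zygotes at 14 HAP (Zy14), elongated zygotes at 24 HAP (Zy24), 1-cell embryos (1C) and 32-cell embryos (32C). Nothing in the labels says whether the 3 libraries of a group came from separate plants, so p-values measure the spread between these libraries only.

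The flowering plant egg cell stores messenger RNA before fertilisation, and part of this maternal store is removed as the zygote begins its own transcription. Among the best known egg cell transcripts are those of the EC1 proteins, small cysteine-rich proteins that the egg releases when sperm arrive and that activate the sperm for gamete fusion. ECS1 and ECS2 encode egg cell aspartyl proteases that are secreted after fertilisation and break down the LURE1 peptides that attract pollen tubes.

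The 5 members with the highest egg cell level were ECS1, ECS2, EC1.3, EC1.2 and EC1.4, which carry most of the members' summed level. For that reason the 250 bases before the annotated start are shown for 4 of them. The windows lie at chr1:11261235-11261484 (minus strand) for ECS1, chr2:14959136-14959385 (plus strand) for ECS2, chr2:9283775-9284024 (minus strand) for EC1.3 and chr4:18293513-18293762 (minus strand) for EC1.4, in RefSeq TAIR10.1. Capitals mark matches, on either strand, to 3 of the 8 motifs searched, the TATA-box letters TATAAA, the W-box variant TTGACT and the MYB98 site GTAACNT.
ECS1: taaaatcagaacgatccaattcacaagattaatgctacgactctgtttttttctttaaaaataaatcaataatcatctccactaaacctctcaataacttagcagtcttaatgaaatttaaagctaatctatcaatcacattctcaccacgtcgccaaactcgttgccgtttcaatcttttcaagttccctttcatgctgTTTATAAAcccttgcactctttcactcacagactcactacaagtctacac
ECS2: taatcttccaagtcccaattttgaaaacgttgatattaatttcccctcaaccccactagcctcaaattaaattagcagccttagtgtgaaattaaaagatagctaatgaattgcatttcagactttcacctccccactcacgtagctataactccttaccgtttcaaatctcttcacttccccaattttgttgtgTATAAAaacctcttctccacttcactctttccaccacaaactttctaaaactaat
EC1.3: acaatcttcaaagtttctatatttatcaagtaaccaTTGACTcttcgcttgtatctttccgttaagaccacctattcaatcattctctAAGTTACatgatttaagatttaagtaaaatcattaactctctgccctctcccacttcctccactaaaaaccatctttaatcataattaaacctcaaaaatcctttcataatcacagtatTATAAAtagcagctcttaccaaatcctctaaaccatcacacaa
EC1.4: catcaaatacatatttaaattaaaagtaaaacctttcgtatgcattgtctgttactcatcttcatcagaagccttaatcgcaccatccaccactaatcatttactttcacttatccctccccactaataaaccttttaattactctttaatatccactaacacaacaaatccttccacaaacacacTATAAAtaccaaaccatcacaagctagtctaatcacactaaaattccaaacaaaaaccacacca

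All 4 windows held TATAAA on the gene's own strand, beginning 48 bases before the annotated start in ECS1, 55 in ECS2, 43 in EC1.3 and 64 in EC1.4. The window of SBT4.13, the next member by egg cell level, held TATAAA only on the other strand, beginning 102 bases before the start. In ECS1 the capitals cover 2 overlapping matches, one on each strand. The annotated start of EC1.4 is also its coding start, so its window is placed from the coding sequence rather than from a transcript start. TATAAA was present in 57.2% of the 166 member windows, 44.2% of the windows of the other egg and zygote loci and 47.3% of all 27443 windows. The member windows were also poorer in G and C, with a median of 30.0% against 32.0% for the other loci and 31.2% for all, and the part of base composition in the motif shares was not tested. TTGACT stood in 15.1% of member windows, 17.6% of those of the other loci and 19.1% of all, and GTAACNT in 15.1%, 10.8% and 11.4%. The other 5 motifs searched were the G-box CACGTG, the W-box variant TTGACC, the telo-box AAACCCTA, the auxin response element TGTCTC and the letters AACCGG, which had no match in the 4 windows printed. These are matches of letters and say nothing of binding.

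One hybrid library stood apart from the rest. LZy14 replicate 3 lay between LZy14 replicates 1 and 2 for 85.6% of the 10859 genes at 5 FPKM or more in all 3 LZy14 libraries, and its log2 level differed from their mean by an SD of 0.0912. The same 2 measures ran from 6.48% to 57.0% and from 0.2025 to 0.7316 in the other 26 libraries. LZy14 replicate 3 listed 98.2% of the genes that either of the other LZy14 libraries listed. It was kept as deposited, the counts of members in each comparison that uses it are also given without it, and why it lies so close to the mean of the other pair was not tested. Elsewhere, FPKM sums per library ran from 746880 to 940207, and steps in the low values put 1 FPKM at about 15.7 to 31.7 fragments per kilobase of transcript in the 23 libraries where separate sets of genes gave that step within 10% of each other. The estimate was unsure in the rest.

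The members filled a large share of the egg cell library and almost none of the later ones. They made up 11.4%, 13.9% and 10.5% of the FPKM sum in the EC libraries and 1.87%, 2.84% and 2.55% in the Zy14 libraries. Their share was at most 0.0011% in the Zy24 libraries, 0.0115% to 0.0156% in the 1C libraries and 0.064% to 0.0704% in the 32C libraries. The median over members of the EC mean was 47.0 FPKM and of the Zy14 mean 20.8. It was 0 for Zy24 and 1C and 0.11 for 32C. The rule required the fall between Zy14 and Zy24. It set no ceiling on 32C, where the members summed to 612, 606 and 555 FPKM, after 6.22, 9.36 and 6.04 in Zy24 and 94.6, 128 and 109 in 1C. In bulk libraries such as these, fewer cells of a type and less RNA per cell cannot be told apart.

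**Figure D1:**
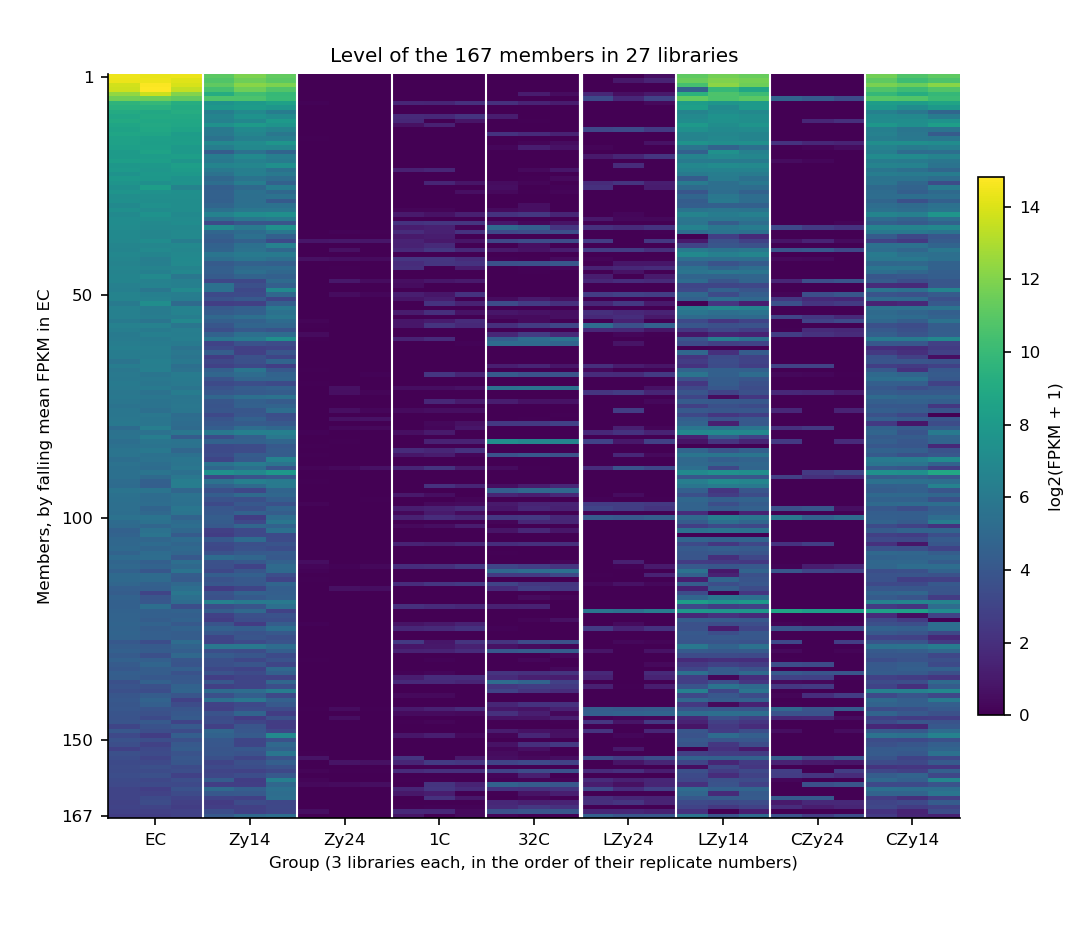
Level of the 167 members as log2(FPKM + 1), 1 row for each member by falling mean in EC and 1 column for each of the 27 libraries, with the 3 libraries of a group side by side and white lines between groups. The EC, Zy14, LZy14 and CZy14 columns are filled, the Zy24 columns are empty, and scattered rows are filled in 32C, LZy24 and CZy24.

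Within the members, the decline had begun before 14 HAP for the majority, although the rule asked only for 5 FPKM at both times. All 3 Zy14 libraries lay below all 3 EC libraries for 100 members (59.9%), against 15.7% of the other egg and zygote loci. The order was the opposite for 9 members, and the groups overlapped for 58. The EC mean was at least 2 times the Zy14 mean for 91 members, and the Zy14 mean was at least 2 times the EC mean for 12. Both groups entered the rule, so these counts are a description. Summed levels of 7 synergid markers, genes of the cells beside the egg, ran from 2.55 to 1727 FPKM in Zy14 and from 9.64 to 538 FPKM in EC. The highest value in each group came from a single library, no member is on that list, and its part in the levels was not tested.

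Egg cell levels were very uneven. The mean was 1000 FPKM or more for 6 members, 100 to 1000 for 37, 10 to 100 for 113 and under 10 for 11. After 14 HAP, 105 members were listed at 0 in all 3 Zy24 libraries and 67 at 0 in all Zy24 and 1C libraries. Of these, 42 were also at 0 in every 32C library.

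The members nearest the limits show how sharp they were. LHT2, PUB29 and AT4G28030 were just inside the EC limit, with a lowest EC library of 5.44, 5.47 and 5.57 FPKM, and AT5G45990, AT5G24220 and AT5G37250 were just outside it at 4.93, 4.92 and 4.86. For Zy14 the nearest inside were AT1G61410, AT2G35730 and IKU2 at 5.0, 5.11 and 5.11, and the nearest outside were AT3G48810, MES5 and AT5G49015 at 4.9, 4.87 and 4.87. For Zy24 the highest libraries inside were those of AT1G14210, AT4G18080 and PHT2;1 at 0.97, 0.9 and 0.71, with CPD, AT4G31640 and AT3G27110 outside at 1.03, 1.05 and 1.06. For 1C, CYP97A3, PHT2;1 and AT2G41190 were inside at 4.77, 4.71 and 4.68, and NET2D, AT5G64150 and AT3G56730 were outside at 5.04, 5.15 and 5.23.

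The secreted proteases were the most abundant members. ECS1 had 21686, 20174 and 20827 FPKM in EC and 2183, 3698 and 2435 in Zy14, was listed at 0 in all Zy24 and 1C libraries, and reached 0.04 in a single 32C library. ECS2 had 21147, 21145 and 17183 FPKM in EC and 1733, 2952 and 2124 in Zy14, and was at 0 in every later Col library. The ECS1 and ECS2 transcripts were 78.4% identical over their aligned bases. SBT4.13, a subtilisin-like serine protease, had 3094, 2795 and 2294 FPKM in EC, 1642, 1558 and 985 in Zy14, and 0.01, 0 and 0 in Zy24. It was at 0 in all 1C and 32C libraries.

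In the hybrids the same proteases were measured in samples that the rule did not use, and all 3 fell in both crosses. ECS1 had 0, 0 and 0.51 FPKM in LZy24, against 2214, 3207 and 2609 in LZy14, and 0 in all 3 CZy24 libraries, against 3240.4, 1692 and 2241 in CZy14. No 24 hour library came near a 14 hour one. The fitted change of log2(FPKM + 1) was −11.17 in each cross (limma, Benjamini-Hochberg adjusted p of 5.5e-10 in LZy and 5.49e-10 in CZy). ECS2 had 0, 0.9 and 1.83 FPKM in LZy24, against 2709, 3891 and 3309 in LZy14, and 0 in all CZy24 libraries, against 2239, 1181 and 1641 in CZy14. Its changes were −10.87 and −10.67. SBT4.13 was cleared less completely, with 8.91, 2.15 and 6.68 FPKM in LZy24, against 2473, 1554 and 2028 in LZy14, and 24.7, 17.4 and 9.62 in CZy24, against 1912, 1754 and 1098 in CZy14.

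The EC1 family has 5 genes, and 3 of them were members. EC1.3 had 14175, 26346 and 15611 FPKM in EC, 2375, 4528 and 3766 in Zy14 and 0 in all Zy24 libraries. EC1.2 had 12856, 28543 and 11096 FPKM in EC, 1379.5, 3002 and 1748 in Zy14 and 0 in all Zy24 libraries. EC1.4 had 5419.6, 12344 and 4279 FPKM in EC, 583, 1241 and 963 in Zy14 and 0 in all Zy24 libraries. All 3 were highest in EC replicate 2 and listed at 0 in every 1C library, and EC1.4 alone was seen in 32C, at 1.15 and 0.41 FPKM in 2 libraries. EC1.2 and EC1.3 are neighbours on chromosome 2 and their transcripts were 82.1% identical. For neither was a stretch of at least 100 bases at 95% identity or more found in another gene. Whether reads were shared between them was not tested.

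The family members outside the rule missed it in different ways. EC1.1, the most abundant of the 5, had 21833, 32564 and 23478 FPKM in EC and 0 in every Zy24 library, but 5.57 FPKM in 1C replicate 1, just over the limit. EC1.5 was retained at a low level, with 35.7, 27.2 and 17.5 FPKM in Zy24 and 13, 21.2 and 23 in 1C. In the hybrids EC1.5 had 52.2, 73 and 64.7 FPKM in LZy24, against 403, 603 and 499 in LZy14, and 43.4, 43.5 and 39.5 in CZy24, against 477, 335 and 476 in CZy14. Its fitted log2 changes, −2.96 in LZy and −3.30 in CZy, were the smallest of the family, beside −12.57 and −12.48 for EC1.1.

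Every EC1 member fell in both crosses. EC1.3 was at 0 in all LZy24 and CZy24 libraries, against 1384, 4786 and 3020.2 FPKM in LZy14 and 3645, 2878 and 4681 in CZy14, with log2 changes of −11.41 and −11.84. EC1.4 had 2.09, 0.52 and 1.04 FPKM in LZy24, against 696, 1641 and 1121 in LZy14, and 0 in CZy24, against 909, 601 and 912 in CZy14. EC1.2 was at 0 in all LZy24 and CZy24 libraries, with changes of −7.75 ± 0.99 in LZy and −10.56 ± 0.99 in CZy (log2, SE). The gap between those changes came from the 14 hour zygotes, where EC1.2 had 23, 975 and 426 FPKM in LZy14, against 1693, 1126 and 1786 in CZy14. All LZy14 values lay below all CZy14 values, but the spread in LZy14 was wide, and the difference of −2.80 did not pass the test (limma, adjusted p = 0.0815).

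**Figure D2:**
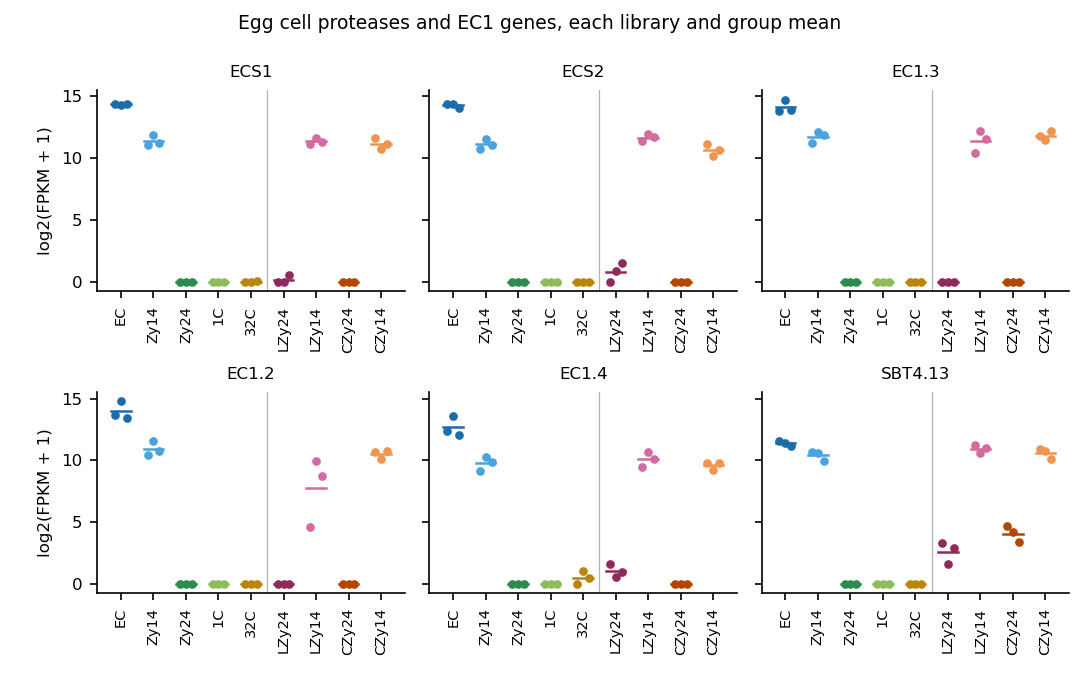
Level of ECS1, ECS2, EC1.3, EC1.2, EC1.4 and SBT4.13 as log2(FPKM + 1) in each of the 9 groups. Points are single libraries and short lines are group means of the plotted values. The EC, Zy14, LZy14 and CZy14 points are high in each panel, the Zy24 and 1C points lie at or near 0, SBT4.13 keeps 2.15 to 24.7 FPKM in LZy24 and CZy24, and 1 LZy14 library is low for EC1.2.

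Most members behaved in the crosses as these did. Between 24 and 14 HAP, 147 of the 167 members were lower in LZy24 than in LZy14 and 0 were higher, by limma on the 12 hybrid libraries alone taking as called an adjusted p below 0.05 together with a log2 change of 1 or more in size. In the same comparison 17.8% of all 18481 genes tested and 18.1% of the other egg and zygote loci were called lower. The shares called higher were 17.4% and 14.2%. At an unadjusted p under 0.05, 0 members were higher. In the other cross 145 members were lower in CZy24 than in CZy14 and 1 was higher. There 23.0% of all genes and 20.0% of the other loci were called lower, and 18.7% and 16.6% higher. The median change of the members was −3.62 in LZy and −4.17 in CZy, against 0 and −0.04 over all genes tested. Adding 1 before the logarithm makes the changes of weakly expressed members too small.

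Both crosses called 135 members lower, and for 130 of these no 24 hour library overlapped a 14 hour library in either cross. A further 12 were called lower in LZy only, 10 in CZy only and 10 in neither. Calls in both crosses and lack of overlap were not counted over other loci. The share called lower in both cannot exceed the LZy share, 17.8% of all genes tested and 18.1% of the other egg and zygote loci. Without LZy14 replicate 3, 134 members were lower in LZy24 than in LZy14 and 0 were higher, beside 14.6% and 15.6% of all genes. Both crosses then shared 125 members. By function class, taken from words in the product descriptions, the counts lower in LZy24 were then 12 transcription factors, 18 cell wall and carbohydrate genes, 9 transporters, 20 cytochrome P450 and other enzymes, 7 proteases, 8 kinases and phosphatases and 6 secreted or small proteins. They were 5 RNA, DNA and cell cycle genes, 5 ubiquitin and F-box genes, 15 uncharacterised genes and 29 others. Without LZy24 replicate 2, AT2G28080 was called higher in LZy24 than in LZy14.

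**Figure D3:**
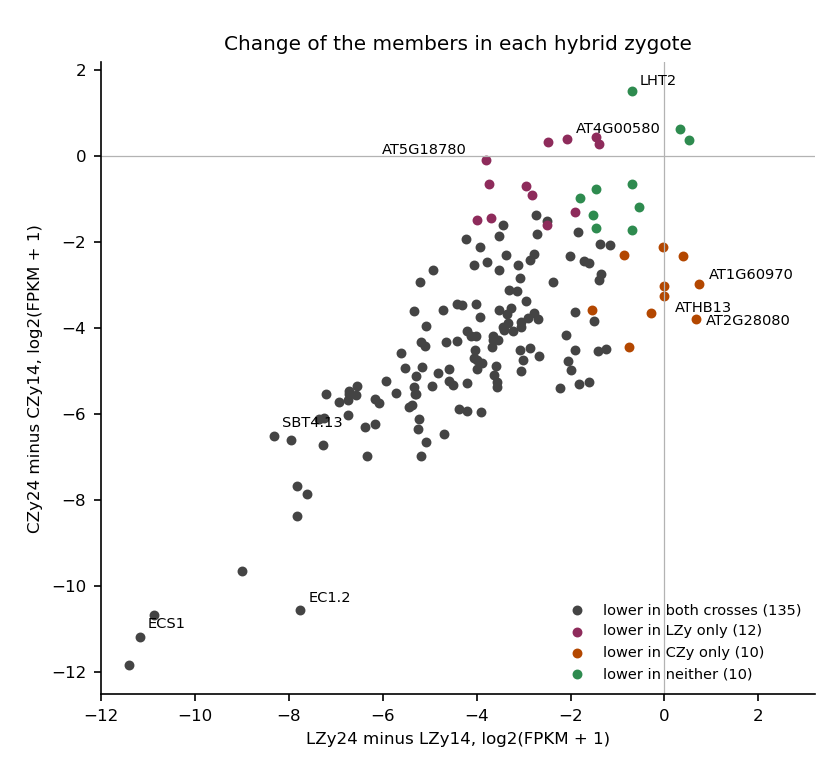
Change of log2(FPKM + 1) between 24 and 14 HAP for each of the 167 members, LZy on the horizontal axis and CZy on the vertical axis. Colours give the cross in which a member was called lower. The 135 members lower in both crosses run toward −11 to −12 at the bottom left, and the 10 called in neither lie above −2 on both axes.

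At 24 HAP the members summed to a larger share in hybrid than in Col zygotes, but the rule had held Zy24 under 1 FPKM. That order was set in advance and is a description. Listed at 0 in all 3 libraries of a group were 105 members in Zy24, 87 in LZy24 and 106 in CZy24. Of all loci 29.9%, 27.4% and 34.4% were at 0 in the same groups. AT4G00580 alone averaged 346 FPKM in CZy24, where the members summed to 644 on average. The members made up 0.0272% to 0.0341% of the FPKM sum in LZy24 and 0.06% to 0.0859% in CZy24, against at most 0.0011% in Zy24. All 3 LZy24 libraries were under 1 FPKM for 111 members (66.5%) and all 3 CZy24 libraries for 121 (72.5%). The same held for 34.6% and 39.8% of all loci, and for 0.572% and 2.00% of the other egg and zygote loci. Every LZy24 and CZy24 library was under 1 FPKM for 97 members, and 58 were listed at 0 in all Zy24, LZy24 and CZy24 libraries. At 14 HAP 108 members were at 5 FPKM or more in every LZy14 and CZy14 library. The whole pattern, present at 14 HAP and under 1 at 24 HAP in both crosses, was met by 63. These joint counts were not taken over other loci.

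Among transcription factors, 13 of 14 were lower in LZy24 than in LZy14 and all 14 were lower in CZy24 than in CZy14. MYB64 and MYB119, which act together in female gametophyte cellularisation, were both members. MYB64 had 498, 448 and 442 FPKM in EC, 90.7, 117 and 243 in Zy14 and 0 in all Zy24 libraries. In the crosses it was at 0 in LZy24, against 147, 181 and 159.7 FPKM in LZy14, and had 0, 2.06 and 2.99 in CZy24, against 141, 155 and 183 in CZy14. MYB119 was lower, at 88.4, 70 and 93.4 FPKM in EC and 16.8, 22.3 and 61 in Zy14, and was listed at 0 in every later Col library and every 24 hour hybrid library. REM1, a B3 domain factor, had 0, 0 and 0.66 FPKM in LZy24, against 192, 158 and 173 in LZy14, and 3.43, 2.12 and 1.81 in CZy24, against 157, 162 and 146 in CZy14. CES, a bHLH factor of brassinosteroid responses, was at 0 in all LZy24 and CZy24 libraries, against 65.7, 75.7 and 70 FPKM in LZy14 and 76.1, 70.6 and 73.8 in CZy14.

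The egg cell factors of the RKD family, RWP-RK proteins of the egg cell and embryo, were outside the rule and behaved unlike one another. RKD2 had 1695, 1802 and 1519.8 FPKM in EC, 225, 404 and 289 in Zy14, and still 14.3, 0 and 6.64 in Zy24. RKD1 had 331, 355 and 189.9 FPKM in EC, 45.9, 103 and 30.2 in Zy14, and 4.31, 2.95 and 3.24 in Zy24. RKD4, needed for the first divisions of the embryo, was higher in the zygote, with 109, 120.3 and 97.4 FPKM in EC, 569.9, 489 and 333 in Zy14, 259, 239.8 and 228 in Zy24, and 1.54, 1.72 and 3.56 in 1C.

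Cell wall and carbohydrate genes made up 20 members, and 18 were lower in both crosses. The most abundant was AT5G44820, a nucleotide-sugar transferase family gene with 680.3, 659.7 and 533 FPKM in EC, which was at 0 in all LZy24 and CZy24 libraries, against 330.1, 137 and 248 in LZy14 and 234, 146 and 237 in CZy14. QRT2, a polygalacturonase known from the separation of pollen tetrads, had 353, 331 and 297 FPKM in EC. It too was at 0 in all 24 hour hybrid libraries, against 96, 119 and 103 FPKM in LZy14 and 76.1, 59.8 and 56.2 in CZy14. Of 13 transporters, 12 were lower in each cross and in both. SUC9, a sucrose transporter, had 315, 315 and 213 FPKM in EC and stood at 0 in LZy24, against 66.8, 66.6 and 65.5 in LZy14, and at 0.43, 0.19 and 0.04 in CZy24, against 71.8, 64.5 and 54 in CZy14.

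Of 25 cytochrome P450 and other enzymes, 20 were lower in LZy, 19 in CZy and 17 in both. CYP78A9, a cytochrome P450 known from fruit and seed growth, had 539, 463 and 569 FPKM in EC and was at 0 in every later Col library from Zy24 on. In the hybrids it was at 0 in LZy24, against 98.3, 148 and 119 FPKM in LZy14, and at 0 in CZy24, against 86.7, 56.4 and 27 in CZy14. All 7 proteases and peptidases were lower in both crosses, and 8 of 9 protein kinases and phosphatases. MPK14, a MAP kinase, had 99.1, 82.4 and 113 FPKM in EC, 21.5, 39.9 and 29.6 in Zy14 and 0 in all Zy24 libraries. It had 0, 0.68 and 0 FPKM in LZy24, against 50.6, 57.7 and 52.1 in LZy14, and 0 in CZy24, against 39.4, 30.4 and 20.9 in CZy14.

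The 8 members grouped by their product descriptions as secreted or small proteins included the 3 EC1 genes and a glycolipid transfer protein, and 6 were lower in both crosses. PR5, a thaumatin-like defence protein, had 409.7, 481 and 432 FPKM in EC and was at 0 in all LZy24 and CZy24 libraries, against 246, 149 and 200.3 in LZy14 and 230.0, 163 and 318 in CZy14. ERD10, a dehydrin of the class left over after grouping, had 781, 935 and 608 FPKM in EC. It had 0, 0 and 0.31 FPKM in LZy24, against 285, 206 and 254 in LZy14, and 0 in CZy24, against 296, 295 and 396 in CZy14. NAKR3, annotated as a chloroplast-targeted copper chaperone, had 432, 513 and 494 FPKM in EC, 101, 189 and 139 in Zy14 and 0 in all Zy24 libraries. It was at 0 in LZy24, against 124, 186 and 156 FPKM in LZy14, and at 0 in CZy24, against 136, 117 and 70.6 in CZy14. In the remaining classes the counts lower in both crosses were 7 of 9 RNA, DNA and cell cycle genes, 4 of 7 ubiquitin and F-box genes, 16 of 18 uncharacterised genes and 27 of 37 others.

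A smaller number of members were higher in Zy14 than in EC before they disappeared. ALPHA-VPE, a vacuolar cysteine protease, had 22, 15 and 37.3 FPKM in EC and 91, 64.6 and 62.8 in Zy14, and was at 0 in all Zy24, 1C and 32C libraries. It was at 0 in LZy24, against 310.4, 194 and 249 FPKM in LZy14, and at 0 in CZy24, against 88.9, 104 and 95.6 in CZy14. AT4G39670, the glycolipid transfer protein, had 42.5, 50.9 and 44 FPKM in EC and 173, 117 and 237 in Zy14. It was at 0 in every later Col library and in LZy24, and had 0, 4.57 and 7.45 in CZy24. AT1G64470 had 34.1, 21.6 and 42.3 FPKM in Zy14, against 7.18, 5.6 and 12.1 in EC. It was at 0 in CZy24, against 43.1, 40 and 39 in CZy14, and had 8.52, 2.8 and 6.15 in LZy24, against 37.6, 23.4 and 27 in LZy14. The opposite extreme was AT5G65530, a protein kinase gene with 9.13, 14.7 and 13.7 FPKM in Zy14, against 143, 123 and 148 in EC. AT2G41390, a pollen Ole e 1 family gene, had 271, 371 and 253 FPKM in EC and 19.9, 45.2 and 26.6 in Zy14, and was at 0 in every later Col library and in LZy24 and CZy24.

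A few members cleared from Col zygotes were still present in hybrid zygotes at 24 HAP. The clearest was AT4G00580, a COP1-interacting protein-like gene, with 24, 22.5 and 24.6 FPKM in EC, 19.8, 31.3 and 6.66 in Zy14 and 0 in every Zy24, 1C and 32C library. It had 52.9, 42.5 and 69.2 FPKM in LZy24, against 240.0, 222 and 228 in LZy14, and 411, 318 and 310.0 in CZy24, against 348, 348 and 146 in CZy14. It therefore fell in LZy (log2 change −2.07, adjusted p = 0.000185) and gave no call in CZy (+0.39, adjusted p = 0.291). Every 14 hour hybrid library exceeded every Zy14 library for this gene.

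RXW8, annotated as a GDSL-like lipase, had 19.7, 17.2 and 18.9 FPKM in LZy24, against 13.8, 15.5 and 14.2 in LZy14, and 30.6, 14 and 17.8 in CZy24, against 9.7, 11 and 17.6 in CZy14. In Col it had 0.06, 0.42 and 0.05 FPKM in Zy24, against 6.04, 10.3 and 9.4 in Zy14. RXW8 overlaps another gene on the same strand over 1432 bases, so its reads could have been assigned to either. AT2G28080, a UDP-glycosyltransferase, was retained in one cross only, with 36.2, 11.3 and 23 FPKM in LZy24, against 14.8, 11.5 and 13 in LZy14, and 0.03, 0 and 0 in CZy24, against 11.4, 9.67 and 19.4 in CZy14. AT2G03550, an alpha/beta-hydrolase family gene, had 17.7, 14.9 and 19.9 FPKM in LZy24, against 30.6, 76.6 and 51.1 in LZy14, and 57.3, 22 and 34.4 in CZy24, against 21.2, 20.6 and 38.5 in CZy14. AT5G52490, a fibrillarin family gene, had 21, 24 and 26.8 FPKM in LZy24, against 37, 40 and 40 in LZy14, and 12, 12.1 and 0 in CZy24, against 26.3, 16.3 and 11.9 in CZy14, with no call in either cross. LHT2, an amino acid transporter, was the single member called higher at 24 HAP. It had 12.6, 5.47 and 10.4 FPKM in CZy24, against 4.79, 1.85 and 1.58 in CZy14 (log2 change 1.52, adjusted p = 0.0232), and 22.9, 14.4 and 16.1 in LZy24, against 50.8, 13.6 and 34.5 in LZy14. That call was lost when CZy14 replicate 2 or 3, or CZy24 replicate 1 or 3, was left out.

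Missing calls had different forms in the crosses. In LZy 20 members were not called lower, of which 9 had a 14 hour mean under 5 FPKM and 6 a 24 hour mean of at least 5. In CZy 22 were not called lower, LHT2 included. Leaving LHT2 aside, 1 of the remaining 21 had a 14 hour mean under 5 FPKM and 15 had a 24 hour mean of at least 5. AT5G51105, which carries the same DUF1278 annotation class of egg cell-secreted proteins as EC1, gave no call in either cross. It had 2.19, 4.41 and 1.08 FPKM in LZy24, against 0, 4.14 and 1.39 in LZy14, and 11.2, 3.95 and 5.03 in CZy24, against 1.76, 2.31 and 16.8 in CZy14. It overlaps a gene on the other strand over 545 bases, and without stranded counts the 2 cannot be told apart.

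At 14 HAP most members lay within 2 times of the Col zygote, more of them in CZy14 than in LZy14. The LZy14 mean was within 2 times of the Zy14 mean for 109 members, lower for 43 and higher for 15. The CZy14 mean was within 2 times for 145, lower for 15 and higher for 7. Zy14 values entered the rule, so these counts too are a description.

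Set against each other, LZy14 was higher than CZy14 for 14 members and lower for 24, where 4.01% of all genes were called higher and 6.69% lower, and 2.58% and 3.79% of the other egg and zygote loci. Without LZy14 replicate 3 the counts were 4 higher and 15 lower, all among the earlier calls, beside 2.19% and 4.09% of all genes. Without CZy14 replicate 2 they were 9 higher and 18 lower. A pair of regulators was listed at 0 in zygotes of the Ler mother, namely ATHB13, a homeodomain-leucine zipper factor, and CLE10, a CLE signalling peptide precursor. ATHB13 was at 0 in all 3 LZy14 libraries, against 15.4, 14.6 and 2.32 FPKM in CZy14, with 9.03, 9.85 and 16.6 in Zy14. CLE10 was at 0 in all LZy14 libraries, against 5.93, 5.3 and 11 FPKM in CZy14, with 5.35, 8.6 and 8.83 in Zy14. Both calls held without LZy14 replicate 3 (adjusted p of 0.0101 for ATHB13 and 0.0010 for CLE10).

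Other members lower in LZy14 were present but scarce. ALDH2C4, an aldehyde dehydrogenase, had 0, 3.33 and 1.11 FPKM in LZy14, against 17.3, 18.7 and 26.8 in CZy14 (log2 difference −3.37, adjusted p = 0.00123). HDK, annotated as a myosin, differed by −3.23 and AT5G20790, an uncharacterised gene, by −3.15, and neither group overlapped the other. AT1G14240, a nucleoside phosphatase family gene, had 0, 0.08 and 0 FPKM in LZy14, against 2.81, 2.58 and 5 in CZy14. These 4 calls held without LZy14 replicate 3.

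Higher in LZy14 were, first, LHT2, with 50.8, 13.6 and 34.5 FPKM in LZy14, against 4.79, 1.85 and 1.58 in CZy14 (log2 difference 3.10, adjusted p = 0.00216). ALPHA-VPE was higher by 1.35 (adjusted p = 0.0033), at the values given above, and both calls held without LZy14 replicate 3. NYC1, a chlorophyll b reductase, had 52.7, 53.9 and 51.9 FPKM in LZy14, against 17.1, 11.5 and 15.5 in CZy14 (1.79, adjusted p = 0.012). SEH, a soluble epoxide hydrolase, had 113, 129 and 120.3 FPKM in LZy14, against 27.3, 13.4 and 64.7 in CZy14 (2.02, adjusted p = 0.0122). Without LZy14 replicate 3 the adjusted p was 0.0503 for NYC1 and 0.0509 for SEH, although the values of the remaining libraries did not overlap. Summed levels of 7 sperm and pollen markers were 199 to 419 FPKM in LZy14, against 86.4 to 196 in CZy14. The sum was 162 to 196 in the unfertilised EC and 61.2 to 161 in Zy14, so it does not measure sperm or pollen alone. Of 3 such markers tested, 0 were called between LZy14 and CZy14. The part of these markers in the differences was not tested.

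**Figure D4:**
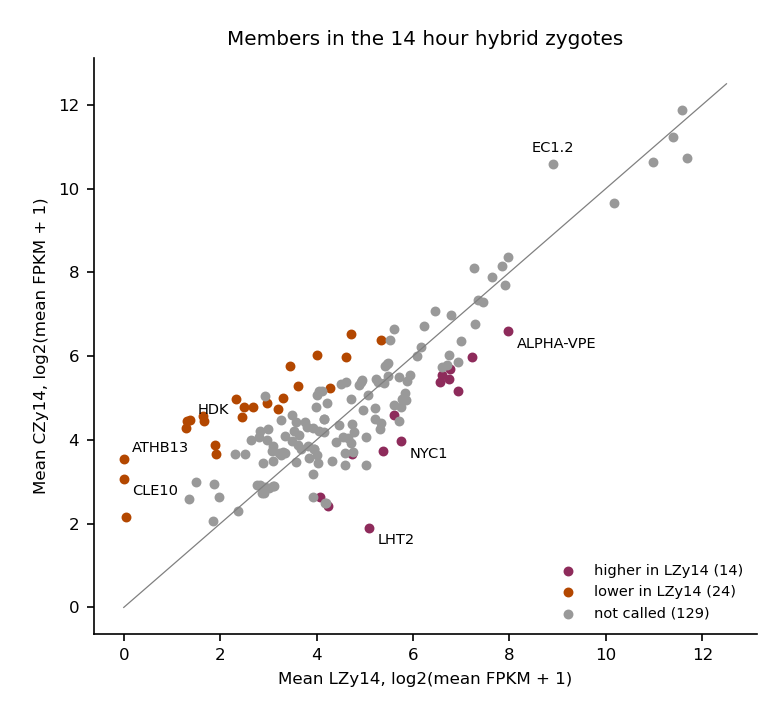
Mean level of the 167 members as log2(mean FPKM + 1), LZy14 on the horizontal axis and CZy14 on the vertical axis, with the line of equal level. Coloured points are the 14 members called higher and the 24 called lower in LZy14. ATHB13 and CLE10 lie at 0 on the LZy14 axis, LHT2 lies far below the line, and EC1.2 lies above it without a call.

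At 24 HAP the crosses differed for 27 members, 14 higher and 13 lower in LZy24 than in CZy24, beside 11.6% and 11.1% of all genes and 8.33% and 10.5% of the other egg and zygote loci. With LZy14 replicate 3 left out of the shared spread the counts were 13 and 11. Only 5 members were called at both hours. AT2G28080 differed most, by 4.46 (adjusted p = 3.6e-05) at the values given above. AT1G14220, a ribonuclease T2 gene, had 7.94, 9.1 and 4.77 FPKM in LZy24 and 0 in CZy24 (3.01, adjusted p = 4.3e-05). AT1G33260, a protein kinase gene, had 5.21, 5.34 and 4.45 FPKM in LZy24 and 0 in CZy24. In the other direction A/N-InvD, a neutral invertase, was at 0 in LZy24, against 14.6, 7.44 and 6.22 FPKM in CZy24 (−3.30, adjusted p = 0.0202). AT5G18780, an F-box gene, had 2.22, 0 and 2.4 FPKM in LZy24, against 16.6, 13.4 and 13.7 in CZy24 (−2.80, adjusted p = 0.00131).

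The change with hour was compared between the crosses directly, as the LZy change minus the CZy change. This difference was called positive for 24 members and negative for 16. Positive means that the level fell less, or rose more, in LZy than in CZy. Over all genes 12.4% were called positive and 9.79% negative, and among the other egg and zygote loci 8.77% and 10.7%. Without LZy14 replicate 3 the counts were 21 and 6. The negative count also dropped without other libraries, to 7 without LZy24 replicate 3, 8 without LZy24 replicate 1, 8 without CZy14 replicate 2 and 10 without LZy24 replicate 2.

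The 32-cell embryo brought some members back. In 32C, 17 members had at least 5 FPKM in every library, 105 were under 1 in every library, and 63 were listed at 0 in all 3. Of the other egg and zygote loci 1.70% were under 1 in every 32C library, 91.7% at 5 or more and 0.561% at 0. Over all loci these shares were 32.7%, 49.8% and 18.7%. All 3 32C libraries lay above all 3 1C libraries for 42 members, but the rule had held 1C under 5 FPKM. The 32C mean exceeded the EC mean for 5. Neither count was taken over other loci, so neither can be called particular to the members.

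AT1G60970, a SNARE-like protein gene, was the highest of the 17, with 40.1, 52.2 and 49.3 FPKM in EC, 24.3, 23.4 and 27.2 in Zy14, and 0, 0.07 and 0 in Zy24. The 1C libraries held 0, 1.62 and 1.65 FPKM of it and the 32C libraries 151, 109.9 and 102. It is the clearest case of a level in 32C above that of EC, with no overlap. AT1G80690, a PPPDE thiol peptidase family gene, had 45, 49.2 and 43 FPKM in 32C after at most 0.66 in 1C. A/N-InvD had 30.8, 38.9 and 44.7 FPKM in 32C and at most 0.03 in 1C. AT1G67340, a MYND zinc finger gene, had 20.6, 38 and 51.5 FPKM in 32C, and AT1G55690, a Sec14p-like gene, had 20.2, 31.3 and 31.5. AT4G23493, an uncharacterised gene, had 38.7, 25.9 and 6.16 FPKM in 32C, where its libraries overlapped those of EC at 11.1, 23.6 and 16.7. TPR14, a tetratricopeptide repeat gene, had 23.8, 19.2 and 15.3 FPKM in 32C, above all EC libraries at 8.54, 8.96 and 8.74.

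A phosphatase and an auxin factor were also among the 17. HAI1, a protein phosphatase 2C that damps abscisic acid signalling, had 76.4, 72.7 and 67.5 FPKM in EC, 0 in all Zy24 libraries and 35.7, 33.9 and 25.8 in 32C. ARF10, an auxin response factor, had 62.7, 52.3 and 71.1 FPKM in EC, at most 0.09 in Zy24 and 17.2, 12.5 and 13 in 32C. NYC1 had 12.3, 16 and 11.9 FPKM in 32C. LHCB5, which encodes a light-harvesting protein, had 11.1, 13.4 and 14.9, and PHT2;1, which encodes a plastid phosphate transporter, had 7.12, 8.78 and 6.66. LHCB5 had only 6.31, 5.9 and 6.15 FPKM in EC. The 5 seed coat and integument markers summed to 14.2 to 16.3 FPKM in 32C and to at most 2.76 in the other groups. Of them 3 were detected in 32C, and only 1 was at 1 FPKM or more in every 32C library. The part of these markers in the 32C levels was not tested.

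**Figure D5:**
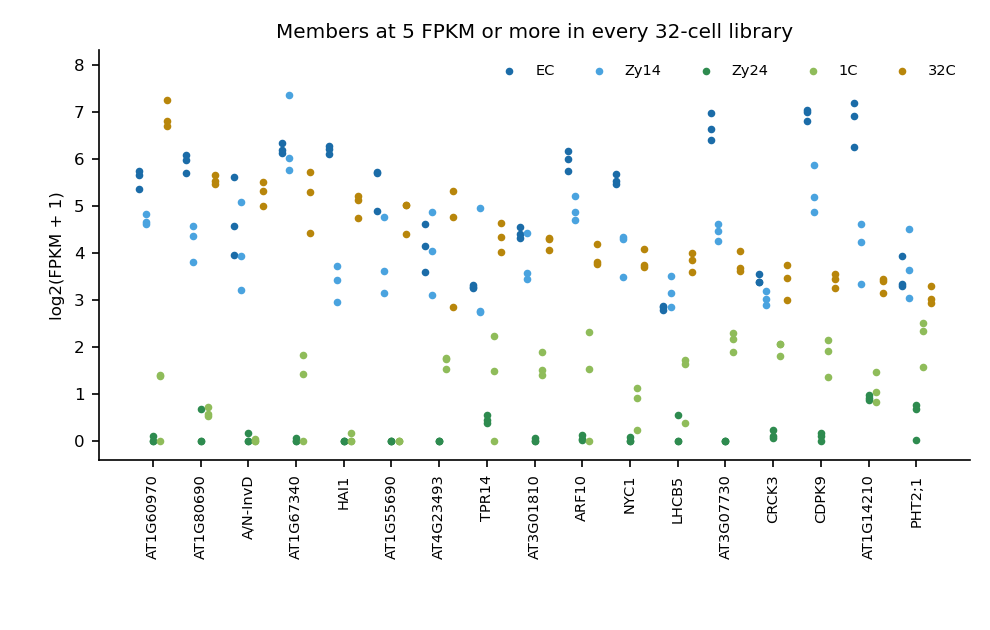
Level as log2(FPKM + 1) in EC, Zy14, Zy24, 1C and 32C for the 17 members at 5 FPKM or more in every 32C library, ordered by their 32C mean, with 1 point for each library. The Zy24 points lie near 0, the 1C points stay under 5 FPKM, and AT1G60970 exceeds its EC level in 32C.

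Position and structure add a little that the rule did not use. Of 166 placed members 22.3% had a single exon, against 7.83% of the other egg and zygote loci and 18.3% of all annotated loci listed, and the median number of exons was 3, 6 and 4. In 4 places members lay within 3 genes of each other, taking in 10 members. The largest such group holds 4 genes at chr1:4856778-4871488 (TAIR10.1), the ribonuclease T2 genes AT1G14210 and AT1G14220 and the nucleoside phosphatase genes AT1G14240 and AT1G14250. They did not behave alike. AT1G14220 had 362, 444 and 381 FPKM in EC and was at 0 in all later Col libraries, while AT1G14210 had 7.83, 9.9 and 9.64 FPKM in 32C, against 119, 144 and 75.1 in EC. AT1G14250 had 3.89, 4.95 and 1.9 FPKM in LZy24, against 13.9, 6.75 and 11.1 in LZy14. The other groups were EC1.2 with EC1.3, MYB64 with the uncharacterised AT5G11070, and the uncharacterised AT4G18080 with AT4G18090.

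Counting can blur some members. A gene on the opposite strand overlapped 29 members, for 25 of them a protein-coding gene, and EC1.2 shared 193 bases with AT2G21730. Near-identical stretches in another gene were found for 4 members. CAB2, a chlorophyll a/b binding protein, was 96.1% identical to CAB1 over 823 bases, and AT3G07730 was 95.7% identical to AT4G01170 over 772 bases, so their values are uncertain.

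Genes of the mRNA decay machinery are given for the same comparisons. Of 28 tested, 10 were lower and 0 higher by limma in LZy24 than in LZy14 (0 higher at an unadjusted p under 0.05). The median change was −0.78, and of all genes 17.8% were called lower and 17.4% higher. Without LZy14 replicate 3 the list had 9 lower and 0 higher. In CZy24, 8 were lower and 1 higher than in CZy14 (4 higher at an unadjusted p under 0.05), with a median of −0.79, beside 23.0% of all genes called lower and 18.7% higher. CAF1B, a CCR4-associated deadenylase, had 13.9, 19.4 and 13.7 FPKM in LZy24, against 458, 259.8 and 349.6 in LZy14 (log2 change −4.40), and 62.6, 35.9 and 44.8 in CZy24, against 330.3, 319 and 585 in CZy14 (−3.06). In Col CAF1B had 19.8, 11.4 and 46 FPKM in EC, 334, 207 and 264 in Zy14, 4.33, 19.2 and 13.7 in Zy24, 17.4, 21.1 and 23.7 in 1C, and 10.4, 7.92 and 11.7 in 32C, so its highest Col level was in Zy14. CAF1B was chosen from the list after its values were seen. LSM1A, a subunit of an RNA-binding complex that promotes decapping, was higher in CZy24, at 592, 488 and 445 FPKM, against 120.2, 133 and 71.9 in CZy14, and gave no call in LZy.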

How the data were processed

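The series held 27 gene tables, 1 for each library. The authors deposited FPKM values to 2 decimals, without counts. Per the labels' protocols, RNA was taken up with a Dynabeads mRNA DIRECT Micro kit and amplified with SMART-Seq v4. Alignment and quantification tools listed in the submitters' processing notes were RSEM and TopHat2, with TAIR10 as the build and no versions. TAIR10 is a Col genome, and its effect on Ler reads was not tested. A locus absent from a table was set to 0.

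Genes with at least 1 FPKM in at least 3 of the 15 Col libraries were tested, 18481 in all, with all 167 members among them. Differences were fitted with limma 3.58.1 (R 4.3.3, trended and robust moderation) on log2(FPKM + 1) over the 12 hybrid libraries, with Benjamini-Hochberg adjustment over all genes tested and 1 shared estimate of the spread. Calls required an adjusted p below 0.05 together with a log2 change of 1 or more in size. Col libraries stayed out of the fit because the rule fixes their values. The fit was tested on simulated data, in which it recovered 81% of 200 changed genes for LZy24 against LZy14, 80% for LZy24 against CZy24 and 64.5% for the difference between the crosses in change with hour. False calls there were 9, 7 and 7. The planted changes exceeded the log2 threshold and lay in LZy24 only, in genes above a floor of mean level. These shares therefore do not describe smaller changes or weakly expressed genes. Positions, promoters and overlaps came from RefSeq TAIR10.1, and the deposited tables hold no coordinates. The window of 1 further gene is not reported here. Summaries used Python 3.11.15 and pandas 2.3.3.

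The members and lists were chosen with earlier results of these data known. Genes named were the egg cell list, and by rank the members highest in EC, in 32C, in the hybrids at 24 HAP and in each function class, those with the largest changes and cross differences, and those nearest each limit. AT5G51105, MYB119, ARF10, AT1G14250, CAB2, LHCB5, TBL9, CAF1B and LSM1A were named after their values were seen. Function classes were assigned by words in the product descriptions. Alternatives varied the pseudocount, filter, scaling, libraries fitted and replicate block, and left out each library.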

Additional observations from a re-analysis of the deposited data

Results flagged for a closer look

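The change between 24 and 14 HAP differed between the crosses, by limma's test of the difference itself with an adjusted p under 0.05, for 23 of the members named here. Over all 167 members the difference was called above 0 for 24 and below 0 for 16, beside 12.4% and 9.79% of all genes tested. Without LZy14 replicate 3 these counts were 21 and 6, beside 9.33% and 6.96%. Of the 23, 17 were also called without that library and 23 had the same sign. Values are the LZy change minus the CZy change on the log2(FPKM + 1) scale, with the change in each cross in brackets.

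The LZy change minus the CZy change was above 0 for 12 members. For 7 of these the LZy14 mean was under 5 FPKM, so little or no fall could be measured in LZy. The difference was 4.45 for AT2G28080 (LZy 0.67, CZy −3.79), 3.69 for AT1G60970 (LZy 0.73, CZy −2.96), 3.68 for ALDH2C4 (LZy −0.75, CZy −4.43) and 3.63 for AT1G33260 (LZy −1.62, CZy −5.25). Further differences were 3.24 for ATHB13 (LZy 0, CZy −3.24), 3.23 for HDK (LZy −1.24, CZy −4.47), 3.16 for AT1G64470 (LZy −2.22, CZy −5.38) and 3.12 for AT5G20790 (LZy −1.41, CZy −4.52). The smallest were 3.01 for CLE10 (LZy 0, CZy −3.01), 2.08 for AT1G14240 (LZy −0.04, CZy −2.12), 1.78 for AT1G70030 (LZy −5.18, CZy −6.96) and 1.72 for AT1G14220 (LZy −4.21, CZy −5.93). For ATHB13 and CLE10, LZy14 and LZy24 were both listed at 0, and AT1G14240 averaged 0.0267 FPKM in LZy14, so these differences restate the difference between the crosses at 14 HAP.

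The change was lower in LZy for 11 members. The difference was −3.71 for AT5G18780 (LZy −3.79, CZy −0.08), −2.47 for AT4G00580 (LZy −2.07, CZy 0.39), −2.21 for LHT2 (LZy −0.70, CZy 1.52) and −1.89 for AT2G03550 (LZy −1.45, CZy 0.44). Further differences were −1.84 for AT1G75770 (LZy −3.44, CZy −1.60), −1.82 for SBT4.13 (LZy −8.32, CZy −6.50), −1.81 for AT2G33420 (LZy −3.92, CZy −2.11) and −1.75 for AT5G25400 (LZy −5.34, CZy −3.59). The smallest were −1.68 for REM1 (LZy −7.21, CZy −5.52), −1.38 for AT4G28030 (LZy −2.74, CZy −1.36) and −1.35 for ALPHA-VPE (LZy −7.95, CZy −6.60). SBT4.13, ALPHA-VPE, LHT2, AT2G03550, AT4G28030 and AT5G25400 lost the call without LZy14 replicate 3, with adjusted p-values of 0.0927, 0.0505, 0.0944, 0.0671, 0.0988 and 0.104 (limma).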

How the results depend on the processing

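The count of members lower at 24 HAP was within 1.5 times of the main value under every alternative run. Counting calls in either direction, leaving out each library gave 134 to 144 members for LZy24 against LZy14, 142 to 145 for CZy24 against CZy14, 21 to 30 for LZy24 against CZy24 and 27 to 48 for the difference in change. LZy14 against CZy14 was less stable: 38 members were called, 18 with a pseudocount of 0.1 and 19 to 41 without single libraries. For LZy14 against CZy14, all genes called were 1979, 1291 with only those groups fitted and 1160 to 2286 without single libraries. A floor of 10 FPKM in EC and Zy14 left 91 members. Median of ratios scaling gave 2 calls, in place of 1, in the mRNA decay list for LZy14 against CZy14.

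For AT4G00580, CZy24 against CZy14 was 0.39, and turned to −0.0039 with quantile normalization and −0.0207 without CZy14 replicate 3, the lowest of its values without single libraries, up to 0.6019 without CZy14 replicate 1, no value being called. With the replicate number as a block the counts were 146, 146, 36, 30 and 37 members, for LZy24 against LZy14, CZy24 against CZy14, LZy14 against CZy14, LZy24 against CZy24 and the difference in change. Deviations of same-numbered libraries had correlations of −0.0289 to 0.069, and those of differently numbered libraries −0.0651 to 0.0478. Values this weak cannot show whether a shared number stands for a shared plant, day or batch.

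Equal FPKM sums moved the median of all genes to −0.22 in CZy and −0.15 in LZy, and the split of all calls to 2800 higher and 4931 lower (CZy, in place of 3463 and 4244) and 2555 higher and 4061 lower (LZy, in place of 3221 and 3284). For LZy14 against CZy14, quantile normalization gave 1020 higher and 1066 lower in place of 742 and 1237. For single genes, called or not, 3361 recomputed values stayed on their side of the thresholds with the same sign, 215 lost a call, 7 gained one and 2 changed sign. The causes were not tested. Counts behind FPKM are not used here, so low values carry counting error of unknown size.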
